A study of Homo sapiens with 6 samples.

Results

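Transcription factors that set gastrointestinal lineages were examined as a set of 9 genes, GATA4, GATA6, HNF4A, FOXA1, FOXA2, CDX2, SOX2, KLF5 and ELF3, among 58174 genes measured. They were chosen by name, with earlier results of these data known, as were the gene lists used below. They were taken from the expression table by Ensembl identifier, and each of the 9 was found. The cells were labelled AGS, a human cell line derived from a gastric adenocarcinoma; the stomach markers that bear on this label are given with the results. Of the 6 libraries of total RNA, 3 were labelled si-NC, with the genotype given as wild type, and 3 were labelled si-FTO, with the genotype given as FTO-/-. The study's methods describe transfection with a negative control siRNA or an siRNA against FTO, an RNA demethylase, so a knockdown and a knockout are both named for si-FTO. The values were TPM, a gene's share of all transcripts corrected for length, given as 1 mean per group by the authors. The spread between the libraries is therefore unknown, no difference was tested, and no depth can be read from TPM.

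Cells of the gut are told apart in large part by the transcription factors they hold. GATA4, GATA6, FOXA1, FOXA2 and HNF4A act in endoderm and its derivatives, SOX2 marks the foregut and stomach, and CDX2 specifies the intestine and appears in the stomach in intestinal metaplasia. KLF5 and ELF3 act in epithelial cells of the gut, KLF5 in proliferating cells and ELF3 in differentiation.

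FTO had an authors' mean of 33.1 TPM in si-NC against 7.27 TPM in si-FTO, so the targeted gene was lower in the group labelled for it, with 4.56-fold between the means. A gene was compared when its mean reached 0.5 TPM in at least 1 group, which 20493 genes did, and was called higher or lower when the log2 ratio of si-FTO over si-NC, with 1 TPM added to each mean, was at least 1 in size. That addition understates the change of low genes. The median log2 ratio of all compared genes was -0.20, and median-ratio scaling of the groups brought it to -0.03.

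The 9 members divided between the groups. GATA4, GATA6, CDX2 and SOX2 were lower in si-FTO, and HNF4A, FOXA1, KLF5 and ELF3 were higher. That is 4 members lower, where 17.0% of all compared genes were, and 4 members higher, where 11.4% were. Because the members were chosen with earlier results of these data known, the contrast with these shares may come from the choice. Over all genes, 2340 were higher and 3492 lower, whereas median-ratio scaling gave 2786 and 2885 and quantile normalization 2803 and 2902, so the excess of lower genes depends on the scaling. FOXA2 stayed under 0.5 TPM in both groups and was not compared, so 8 of the 9 passed the filter. Of these 8, 5 passed through 1 group alone, HNF4A and ELF3 through si-FTO and GATA4, CDX2 and SOX2 through si-NC, and a gene compared through 1 group alone has unequal means by that choice. A gene was taken as off under 0.5 TPM and as on at 5 TPM or more. By that rule GATA4, CDX2 and SOX2 were on in si-NC and off in si-FTO, as were 3.14% of compared genes, and ELF3 was off in si-NC and on in si-FTO, as were 1.79%. FOXA1 and KLF5 were on in both groups.

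**Figure D1:**
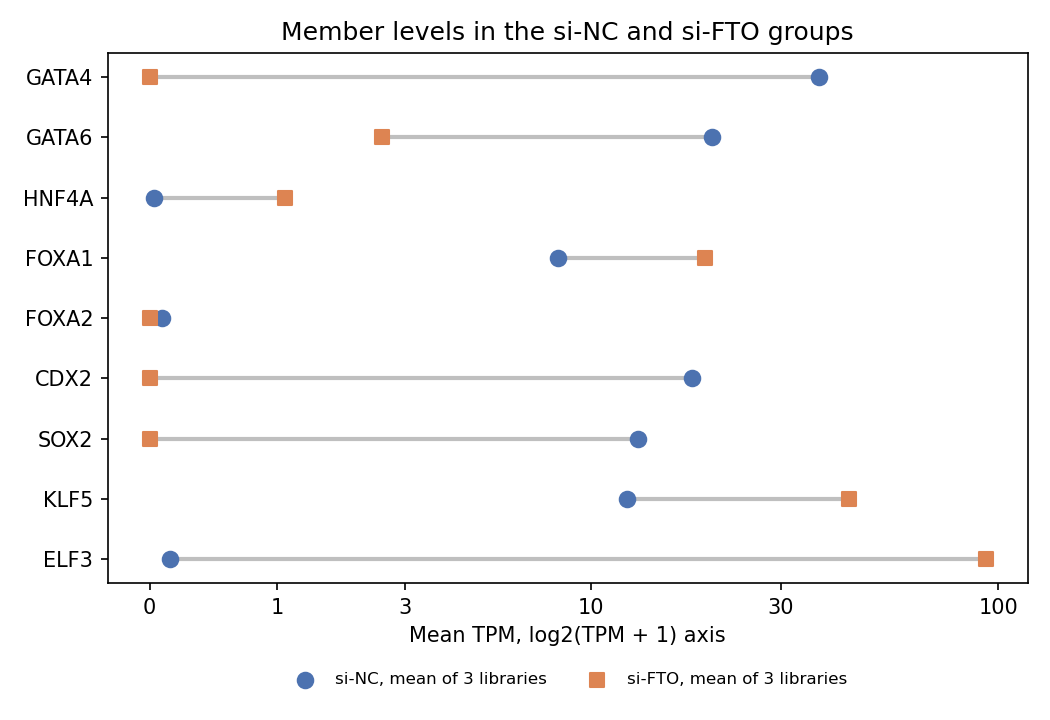
Mean TPM of each member in si-NC (circles) and si-FTO (squares), on a log2(TPM + 1) axis; each point is the authors' mean of 3 libraries and has no error bar because the spread is unknown. GATA4, CDX2, SOX2 and FOXA2 sit at 0 in si-FTO, and ELF3 goes from 0.115 to 93.3 TPM.

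In si-NC the order of the levels was GATA4, GATA6, CDX2, SOX2, KLF5 and FOXA1, with ELF3, FOXA2 and HNF4A close to 0. In si-FTO it was ELF3, KLF5, FOXA1, GATA6 and HNF4A, with the other members listed at 0. Whether neighbours in either order differ beyond their spread cannot be told from means. Summed over the 9 genes, the level was 109 TPM in si-NC against 160.2 TPM in si-FTO. GATA4 made up 33.8% of the first sum and ELF3 58.2% of the second.

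**Figure D2:**
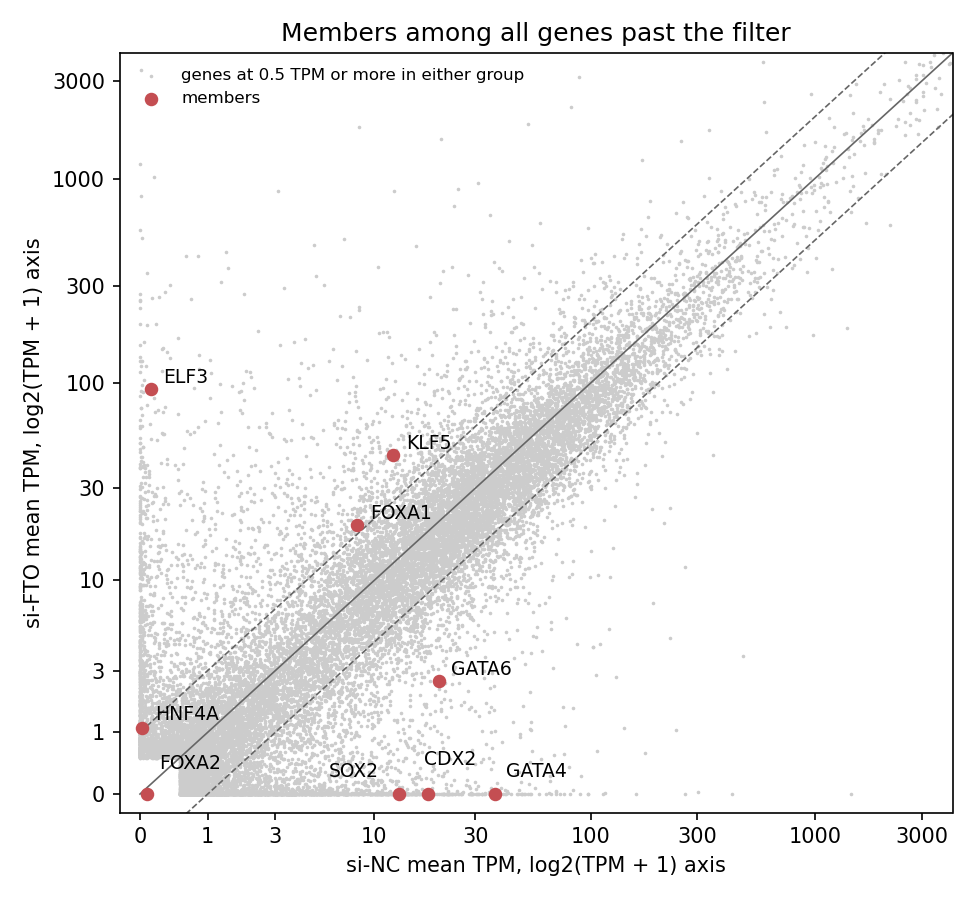
Mean TPM in si-NC (x axis) against si-FTO (y axis), both on log2(TPM + 1) axes, for the compared genes (grey) and the 9 members (red); the solid line marks equal means and the dashed lines a log2 ratio of 1 in either direction. CDX2, SOX2 and GATA4 lie on the lower edge, ELF3 lies near the left edge, and FOXA1 and HNF4A lie just past the upper dashed line.

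Although the values of single libraries were not used here, the means limit them. Of the values from 1 to under 10 TPM, all of the 6778 in si-NC and all of the 6011 in si-FTO became whole at 6 decimals when multiplied by 3, with a tolerance of 0.02 of the last decimal. As listed, 32.4% and 32.6% were whole. The means thus have the form of sums of 3 numbers divided by 3, and since TPM cannot be negative, no library can lie above 3 times its group's mean. For GATA6 the si-FTO libraries could reach 7.63 TPM at most, under the si-NC mean of 20.3 TPM, so at least 1 si-NC library lay above all si-FTO libraries. The same bound held for 7 of the 8 compared members in the direction of their means, and for 29.4% of all compared genes. For GATA4, CDX2 and SOX2 it holds because a mean is 0, and these, HNF4A and ELF3 were compared through 1 group alone, which leaves GATA6 and KLF5 as the 2 members whose place in the count owes nothing to the filter. FOXA1 was the exception, because a si-NC library could have reached 24.7 TPM, above the si-FTO mean of 19.5 TPM. The bound does not show that the groups were separate in all libraries.

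Among the GATA factors, which bind GATA sites and drive endoderm and stomach genes, GATA4 had a mean of 37.0 TPM in si-NC, above 78.5% of compared genes, and was listed at 0 in si-FTO. GATA6, its partner in foregut endoderm, had 20.3 TPM in si-NC against 2.54 TPM in si-FTO, with 7.98-fold between the means and a log2 ratio of -2.59. A mean of 0 leaves no si-FTO library with a value above 0 for GATA4, whereas GATA6 stayed measurable. In bulk RNA, fewer cells that express a gene and less RNA per cell cannot be told apart. As a check on exact values of 0, 0 of 77 ribosomal protein genes were listed at 0 in either group, and their lowest means were 347 and 308 TPM. These genes are far more abundant than GATA4, CDX2 and SOX2 in si-NC, so the check cannot speak to a 0 for genes at such lower levels. Other ubiquitous genes were not checked. GATA4, CDX2 and SOX2 belong to the 1.83% of genes at 10 TPM or more in si-NC for which the si-FTO value was 0.

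GATA4 is annotated at 11534468 to 11617511 on the plus strand of chromosome 8 (GRCh37), and GATA6 at 19749550 to 19782491 on the plus strand of chromosome 18. No annotated gene overlaps GATA4. GATA6 is overlapped on the opposite strand by GATA6-AS1, a noncoding gene that starts beside it and had 3.96 TPM in si-NC against 0.156 TPM in si-FTO. GATA6-AS1 was thus lower in the same group as GATA6. The noncoding gene ENSG00000266283 overlaps the other end of GATA6 and had 1.01 TPM in si-NC, and was listed at 0 in si-FTO. ENSG00000264012, within GATA6, had 0.615 and 0.196 TPM, and RNU6-702P was listed at 0 in both groups. Because the sources used here do not state whether counting used strand, reads of these pairs could have been mixed. Of the 50-base stretches of GATA6 transcripts, 8.51% also occur in another gene, against 0% for GATA4, and the longest stretch that GATA4 and GATA6 share is 17 bases.

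The other GATA genes did not move as a block. GATA2, best known from blood and endothelial cells, was the most abundant GATA gene in both groups, with 45.8 TPM in si-NC against 60.1 TPM in si-FTO. GATA3, a factor of T cells and several epithelia, had 22.4 TPM in si-NC against 0.890 TPM in si-FTO. GATA5, also an endoderm factor, had 1.44 and 1.19 TPM. Of the 6 genes of the family, 5 were compared, 3 were lower and 0 higher.

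SOX2, a factor of foregut, stomach and pluripotent and neural progenitor cells, had a mean of 13.2 TPM in si-NC and was listed at 0 in si-FTO. Its mean in si-NC lay above 58.0% of compared genes. The related SOX21 had 15.9 TPM in si-NC and was also listed at 0 in si-FTO, as was SOX3, which had 0.978 TPM in si-NC. All 5 genes of the SOXB family were listed at 0 in si-FTO, as were 29534 of the 58174 genes, but SOX14 was at 0 in both groups and SOX1 had 0.0263 TPM in si-NC. SOX2 is a single-exon gene at 181429713 to 181432224 on the plus strand of chromosome 3 (GRCh37), inside the noncoding gene SOX2-OT, which had 0.107 TPM in si-NC and was listed at 0 in si-FTO. Of its 50-base stretches, 2.03% also occur in other genes, SOX1 and SOX21 among them.

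CDX2, the homeobox factor of the intestine, had a mean of 18.1 TPM in si-NC, above 64.0% of compared genes, and was listed at 0 in si-FTO. CDX1 and CDX4 were listed at 0 in both groups, so CDX2 was the CDX gene with a value. CDX2 is annotated at 28535055 to 28543452 on the minus strand of chromosome 13 (GRCh37), and no annotated gene overlaps it. Its nearest compared gene is PDX1, a homeobox factor of pancreas, duodenum and antrum, which had 1.80 TPM in si-NC and was listed at 0 in si-FTO. The 10 compared genes nearest to CDX2 had a median log2 ratio of -0.29, with 2 lower and 0 higher. Those nearest to SOX2 had a median of -0.04, with 0 lower and 0 higher, so these compared genes did not share its low value in si-FTO. SOX2-OT, which contains SOX2, stayed under 0.5 TPM in both groups and is not among them.

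The promoters of CDX2 and SOX2 are shown because both genes were on in si-NC while their si-FTO mean was 0. RefSeq promoter windows on GRCh38.p14 were found for 7 of the 9 members, with 9 windows in all, since HNF4A and KLF5 have a pair of starts each. No window was found for GATA4 and FOXA2. Each sequence is the 250 bases before the annotated start. For CDX2 this is chr13:27969316-27969565 on the minus strand, and for SOX2 it is chr3:181711675-181711924 on the plus strand. Capitals mark matches on either strand to GATAA, the core of GATA sites, or CAAAG, found in SOX and HNF4 sites, or TTTAT, found in CDX sites and, as ATAAA, in TATA boxes, or TGTTTAC, the core of FOXA sites.
CDX2: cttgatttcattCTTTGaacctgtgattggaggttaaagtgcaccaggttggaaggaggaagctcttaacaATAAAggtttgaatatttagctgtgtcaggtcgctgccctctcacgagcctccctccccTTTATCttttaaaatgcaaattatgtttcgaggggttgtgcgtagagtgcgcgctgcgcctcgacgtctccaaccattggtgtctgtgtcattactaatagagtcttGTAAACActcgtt
SOX2: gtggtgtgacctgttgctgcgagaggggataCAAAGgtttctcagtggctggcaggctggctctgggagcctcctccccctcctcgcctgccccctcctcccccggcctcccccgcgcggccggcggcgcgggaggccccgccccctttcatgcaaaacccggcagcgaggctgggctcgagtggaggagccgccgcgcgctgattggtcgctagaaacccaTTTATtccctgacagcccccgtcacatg

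Over 35093 such windows of all genes, 20.5% hold GATAA, 42.1% hold CAAAG, 32.7% hold TTTAT and 2.98% hold TGTTTAC, so the 5-letter matches are common. The CDX2 window holds all of these, with TTTAT at -179 and -120, GATAA at -119 in overlap with the latter, CAAAG at -238 and TGTTTAC at -13, counted to the first base of the match from the start. It was the only member window with TGTTTAC. The SOX2 window holds CAAAG at -219 and TTTAT at -28, and its GC content was 68.8%, compared with 45.2% for CDX2 and a median of 58.0% over all windows. The GATA6 window holds TTTAT at -30 and none of the others. A match is a description of the letters and no binding was measured.

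**Figure D3:**
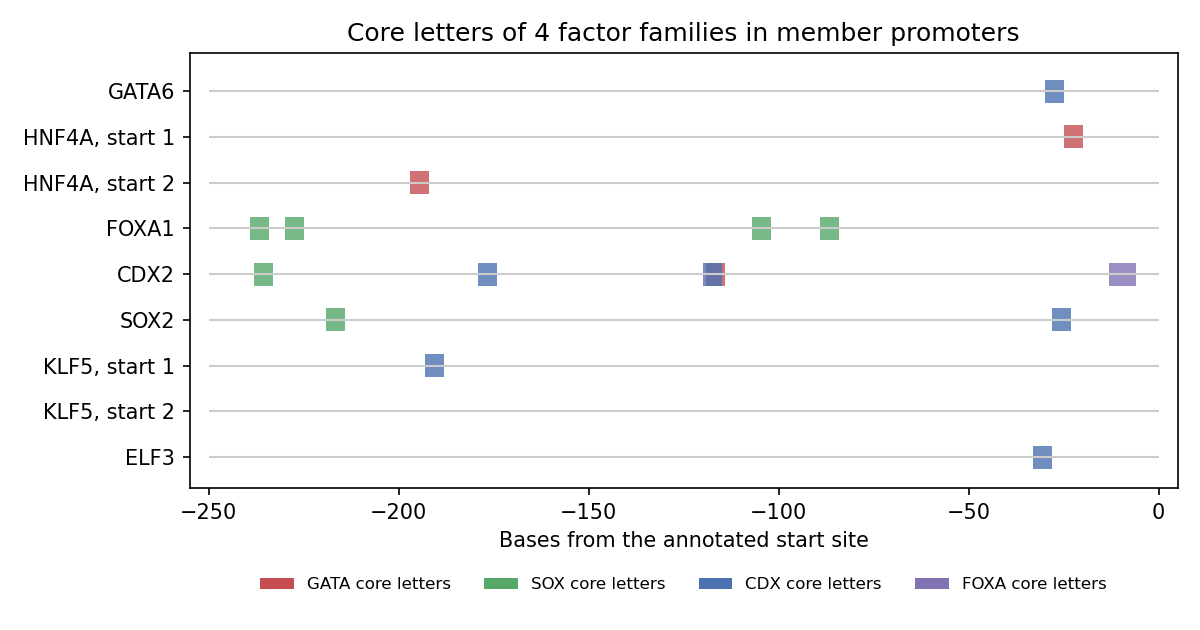
Positions of the 4 core motifs, on either strand, in the 250 bases before the start of each member with a RefSeq window; the x axis is the distance in bases from the annotated start, and each coloured block is 1 match. CDX2 holds all 4 motifs, FOXA1 holds CAAAG 4 times, and the window at the other KLF5 start holds none.

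FOXA1 and FOXA2 are forkhead factors that open chromatin at gut and liver genes. FOXA1 had a mean of 8.24 TPM in si-NC against 19.5 TPM in si-FTO, with 2.36-fold between the means and a log2 ratio of 1.15. FOXA2 had 0.0713 TPM in si-NC and was listed at 0 in si-FTO, so FOXA1 was the FOXA gene on in both groups. FOXA3, the remaining FOXA gene, had 2.22 TPM in si-NC and was listed at 0 in si-FTO. FOXA1 is annotated at 38058757 to 38065264 on the minus strand of chromosome 14 (GRCh37), and TTC6, whose start overlaps it on the opposite strand, had 0.116 TPM in si-NC against 1.10 TPM in si-FTO. FOXA2 lies at 22561636 to 22566093 on the minus strand of chromosome 20, with no overlapping gene. The longest stretch shared by transcripts of FOXA1 and FOXA2 is 48 bases, and no 50-base stretch of either gene occurs elsewhere.

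HNF4A, a nuclear receptor that maintains hepatocyte and intestinal epithelial identity, had a mean of 0.0255 TPM in si-NC against 1.09 TPM in si-FTO. Both means are low, and the si-FTO mean lay above 26.4% of compared genes. The log2 ratio of 1.03 was just past the threshold. HNF4G, its paralog in the gut, had 1.25 TPM in si-NC and was listed at 0 in si-FTO. ONECUT2 had 6.86 and 0.407 TPM and led the 7 HNF factors in si-NC, whereas in si-FTO that was HNF4A. HNF4A is annotated at 42984339 to 43061485 on the plus strand of chromosome 20 (GRCh37). Its antisense gene HNF4A-AS1, and ENSG00000233376 and MIR3646 within it, were listed at 0 in both groups. Its windows, at a pair of annotated starts, each hold 1 GATAA match, at -25 and -197 in the order of the genome.

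KLF5, a zinc-finger factor of dividing epithelial cells, had a mean of 12.4 TPM in si-NC against 43.8 TPM in si-FTO, with 3.54-fold between the means and a log2 ratio of 1.74. In si-NC it lay above 56.8% of compared genes and in si-FTO above 81.9%. KLF5 is annotated at 73629114 to 73651679 on the plus strand of chromosome 13 (GRCh37), and no annotated gene overlaps it. Of the 10 compared genes nearest to it, 4 were lower and 0 higher, with a median log2 ratio of -0.94, so KLF5 was higher amid genes that were not. All 17 genes of the KLF family were compared, with 4 higher and 7 lower, or 5 lower after median-ratio scaling and 4 after quantile normalization. The other higher ones were KLF10 (13.2 and 39.8 TPM in si-NC and si-FTO), KLF13 (19.2 and 55.1 TPM) and KLF1 (0.267 and 5.83 TPM). The lower ones were led by KLF15, at 16.2 and 0.831 TPM, KLF9, at 26.0 and 7.31 TPM, and KLF8, at 2.09 TPM in si-NC but listed at 0 in si-FTO. KLF4, a factor of differentiated gut epithelium, had 5.92 and 9.85 TPM and was within the threshold.

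ELF3, an ETS factor confined in large part to epithelia, had the largest log2 ratio of the members with 1 TPM added. The size of the ratios of GATA4, CDX2 and SOX2, listed at 0 in si-FTO, is limited by that addition. The mean of ELF3 was 0.115 TPM in si-NC, above 4.37% of compared genes, and 93.3 TPM in si-FTO, above 91.6%. The log2 ratio was 6.40, and no si-NC library can have been above 0.345 TPM. Of the other ETS factors in its list, 0 were called. ELF1 had 17.7 and 21.4 TPM in si-NC and si-FTO, ELF2 had 25.1 and 24.0 TPM, and ELF4, which led the list in si-NC, had 46.1 and 38.6 TPM. EHF, a related ETS factor of epithelia, was listed at 0 in si-NC and had 0.852 TPM in si-FTO, and ELF5 was listed at 0 in both groups. Of the 7 genes in the list, 5 were compared, and ELF3 was the 1 called; with quantile normalization or a pseudocount of 0.1 TPM, EHF made 2.

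ELF3 is annotated at 201977073 to 201986311 on the plus strand of chromosome 1 (GRCh37). ELF3-AS1, which overlaps its start on the opposite strand, had 1.83 TPM in si-NC against 12.2 TPM in si-FTO, higher in the same group as ELF3. ENSG00000249007, a noncoding gene on the same strand within ELF3, was listed at 0 in si-NC and had 1.98 TPM in si-FTO. Of the 50-base stretches of ELF3 transcripts, 16.5% also occur in another gene, ELF3-AS1 foremost, so reads could be split between them. Of the 10 compared genes nearest to ELF3, 3 were higher and 1 lower, with a median log2 ratio of 0.53, but ELF3-AS1 and ENSG00000249007 are 2 of the 3. Without these overlapping genes, a choice made after seeing the data, 1 of the nearest 10 was higher and 1 lower, with a median of 0.34. The promoter window of ELF3, which had the largest log2 ratio of the members higher in si-FTO, is chr1:202010337-202010586 on the plus strand of GRCh38.p14, with capitals as above.
ELF3: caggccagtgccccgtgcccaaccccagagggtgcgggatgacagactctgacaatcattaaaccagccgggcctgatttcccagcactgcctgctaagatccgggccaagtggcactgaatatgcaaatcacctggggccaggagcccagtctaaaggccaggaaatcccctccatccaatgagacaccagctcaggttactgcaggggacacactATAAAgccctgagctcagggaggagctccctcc
It holds TTTAT, here as ATAAA, at -33, and none of the other motifs. SOX2 and GATA6 hold it, on either strand, at -28 and -30.

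**Figure D4:**
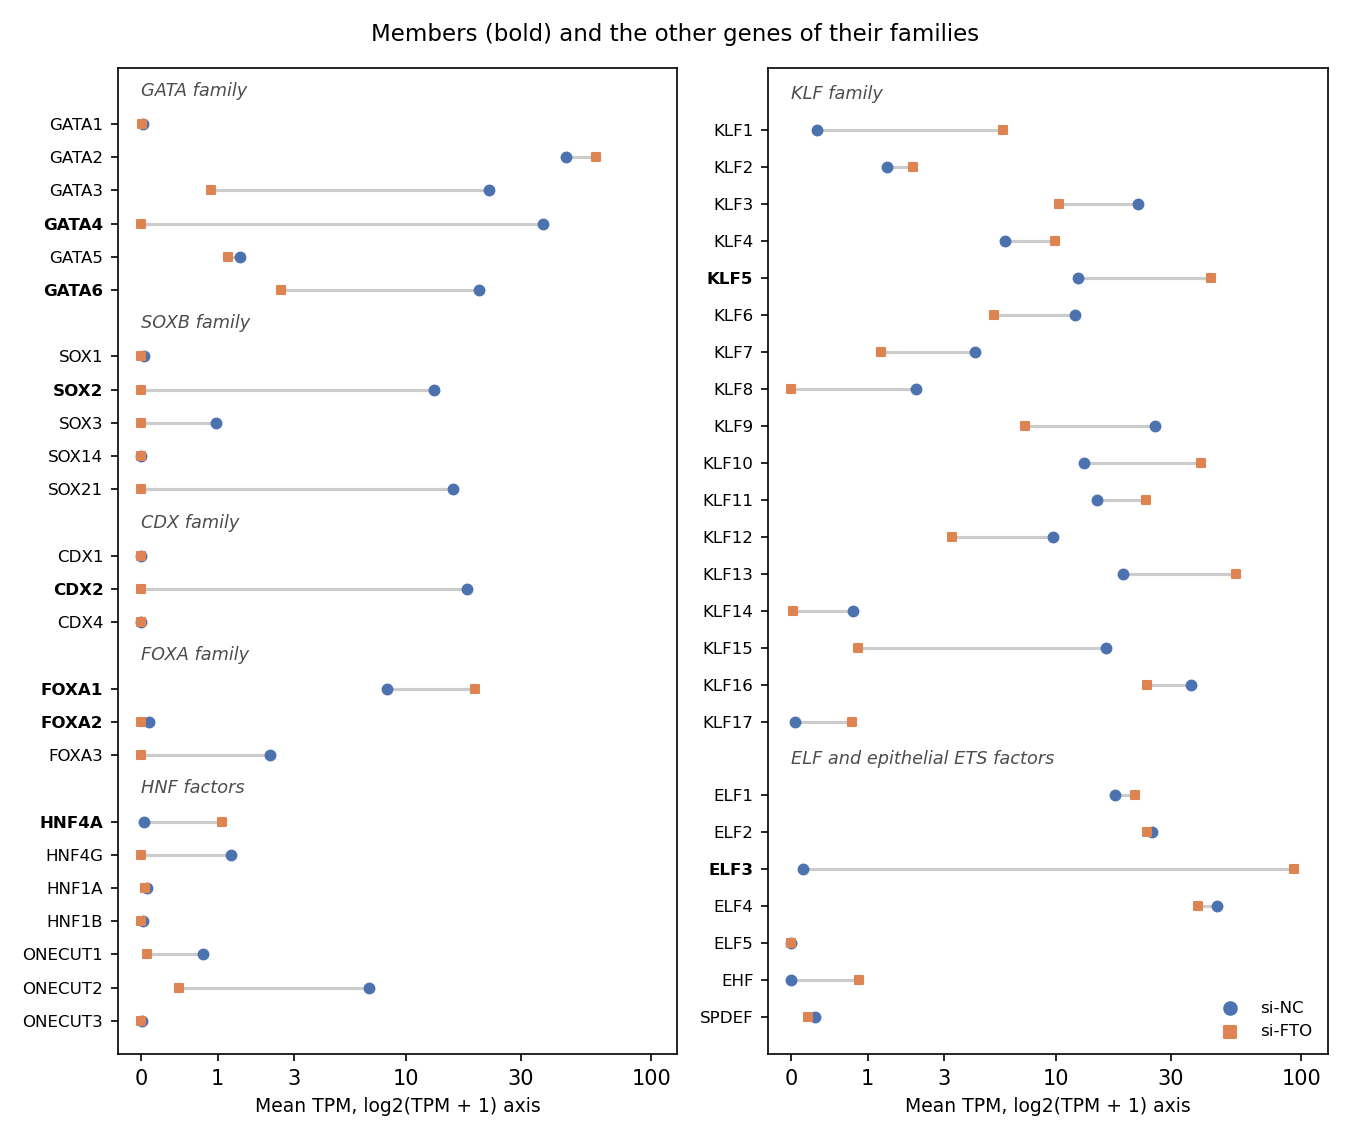
Mean TPM in si-NC (circles) and si-FTO (squares) on a log2(TPM + 1) axis for the members (bold) and the other genes of their families; each point is an authors' mean without an error. All SOXB genes sit at 0 in si-FTO, SOX14 in both groups, GATA2 stays at 45.8 and 60.1 TPM, and KLF genes go both ways, with 4 called higher and 7 lower (5 and 4 lower under the scalings).

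For each member, the 2 listed transcription factors with the nearest pair of means were found, by distance over the 2 group means on the log2(TPM + 1) scale. CDX2 was nearest to BARX1, a factor of stomach mesenchyme, with 18.3 TPM in si-NC and 0 listed in si-FTO (distance 0.02). SOX2 was nearest to ISL1 (0.23) and SOX21 (0.25), and GATA4 to the kidney factor SALL1 (0.36) and the neural factor POU3F3 (0.68). Factors of brain and kidney are thus among those with levels like those of the lower members. Among the higher members, KLF5 was nearest to KLF10 (0.16) and KLF13 (0.68), FOXA1 to TWIST2 (0.59) and VDR (0.70), and HNF4A to EHF (0.18) and KLF17 (0.26). ELF3 had no close neighbour, the nearest being SALL4 (2.79) and TWIST2 (3.50). FOXA2 was nearest to NEUROD1 (0.04) and ISX (0.05), both under 0.5 TPM in both groups.

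Of the 101 listed transcription factors other than the members, 73 were compared, 46 were lower in si-FTO and 6 higher. On in si-NC and off in si-FTO were 14 of them, and KLF1 alone was the reverse. Of 10 other stomach factors, 5 were lower and 1 higher, with a median log2 ratio of -1.59 over the 8 compared. BARX1 is among the lower, as is ESRRG, a factor of acid-secreting parietal cells, at 5.13 TPM in si-NC but listed at 0 in si-FTO, and the higher was BHLHA15, a factor of secretory cells, listed at 0 in si-NC and at 3.94 TPM in si-FTO. Of 16 other intestinal factors, 5 were lower and 0 higher, or 1 higher with quantile normalization or a pseudocount of 0.1 TPM (median -1.17 over 7), SOX9 (4.64 and 0.0769 TPM) and GFI1 (11.5 and 1.58 TPM) among them. Of 10 enteroendocrine factors, 4 were lower and 0 higher (median -1.99 over 5), ISL1, INSM1 and NKX2-2 among them, each listed at 0 in si-FTO. PAX6 was the most abundant of these in both groups, with 21.8 and 8.12 TPM.

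Factors of other organs were also abundant in si-NC. Of 10 kidney factors, 8 were lower and 0 higher (median -2.68 over 9), and their summed level was 125 TPM in si-NC against 39.1 TPM in si-FTO. SIX2 was the most abundant, with 37.3 and 36.4 TPM. Of 15 neural factors, 10 were lower and 0 higher (median -2.02 over 12), with sums of 145 and 23.4 TPM, and ZIC2 was the most abundant, with 43.3 and 12.6 TPM. Of 11 mesenchymal factors, 6 were lower and 1 higher (median -1.61 over 9), with sums of 150.4 and 72.7 TPM. SNAI2 led the last list in si-NC, with 52.5 TPM, and TWIST2 in si-FTO, with 29.8 TPM. The part of these genes in the members' values was not tested.

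The label of a gastric epithelial line was checked against genes that mark such cells. TFF1 was listed at 0 in both groups, MUC5AC had 0.00251 and 0.334 TPM in si-NC and si-FTO, and CLDN18 had 0.627 and 0.759 TPM. EPCAM had 1.22 and 0.113 TPM, and KRT19 was listed at 0 in si-NC and had 0.130 TPM in si-FTO. These genes were therefore at or under 1.22 TPM in both groups. EPCAM and KRT19 mark epithelia in general and not the stomach alone. Of the 30 genes in the epithelial list that holds them, 14 reached 1 TPM in si-NC and 18 did in si-FTO. In that list KRT8 had 10.8 and 3139 TPM and KRT18 had 52.1 and 1851 TPM. KRT8 and KRT18 have many processed pseudogenes, so their exact values are uncertain. Of 23 gastric epithelial genes, 0 reached 1 TPM in si-NC and 1 did in si-FTO, PSCA, with 0.196 and 52.4 TPM. GATA4, GATA6, CDX2 and SOX2 were thus on in si-NC without a stomach gene of that list at 1 TPM. Which cells lie behind each label was not tested and is in doubt from the gastric list. A difference between the groups therefore cannot be told apart from a difference between cells.

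Genes of the intestinal epithelium, where CDX2 and HNF4A act, were mostly low as well. Of 35 such genes, 5 were compared, with 4 higher in si-FTO and 1 lower. In si-NC, where CDX2 was on, 2 of the 35 reached 1 TPM, and 4 did in si-FTO. Those in si-NC were USH1C, a scaffold of the brush border, at 11.6 TPM, and DPP4, a peptidase, at 3.39 TPM. USH1C had 179 TPM in si-FTO and DPP4 was listed at 0 there. The others in si-FTO were ALPI, listed at 0 in si-NC and at 1178 TPM in si-FTO, ANPEP, at 0.0407 and 3.80 TPM, and AGR2, listed at 0 and at 1.26 TPM. ALPI has close paralogs with which reads could be shared, so its value is uncertain. Of 14 genes secreted by hepatocytes, targets of HNF4A and FOXA factors in liver, 1 reached 1 TPM, VTN, with 0.288 TPM in si-NC against 26.8 TPM in si-FTO.

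Of 30 epithelial genes, 12 were higher in si-FTO and 4 lower (median log2 ratio 0.89 over 24), and their summed level was 138 TPM in si-NC against 5439 TPM in si-FTO. Without KRT8 and KRT18, a choice made after seeing the data, the other 28 genes summed to 75.1 and 449 TPM. With a pseudocount of 0.1 TPM 7 genes of the list were lower, and under either scaling 3. KRT7, listed at 0 in si-NC and at 253 TPM in si-FTO, had the same direction as ELF3, as did the membrane protease ST14, at 0.0376 and 39.3 TPM. CDH1, the gene of E-cadherin, had 3.67 and 0.685 TPM, MARVELD3 had 2.77 and 0.0936 TPM, CDH3 had 1.32 and 0.152 TPM, and SPINT2 had 38.2 and 7.99 TPM, each lower in si-FTO, though CDH3 (log2 ratio -1.01) was past the threshold by little. Epithelial genes thus went both ways while ELF3 and KLF5 were higher, and their part in those levels was not tested.

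**Figure D5:**
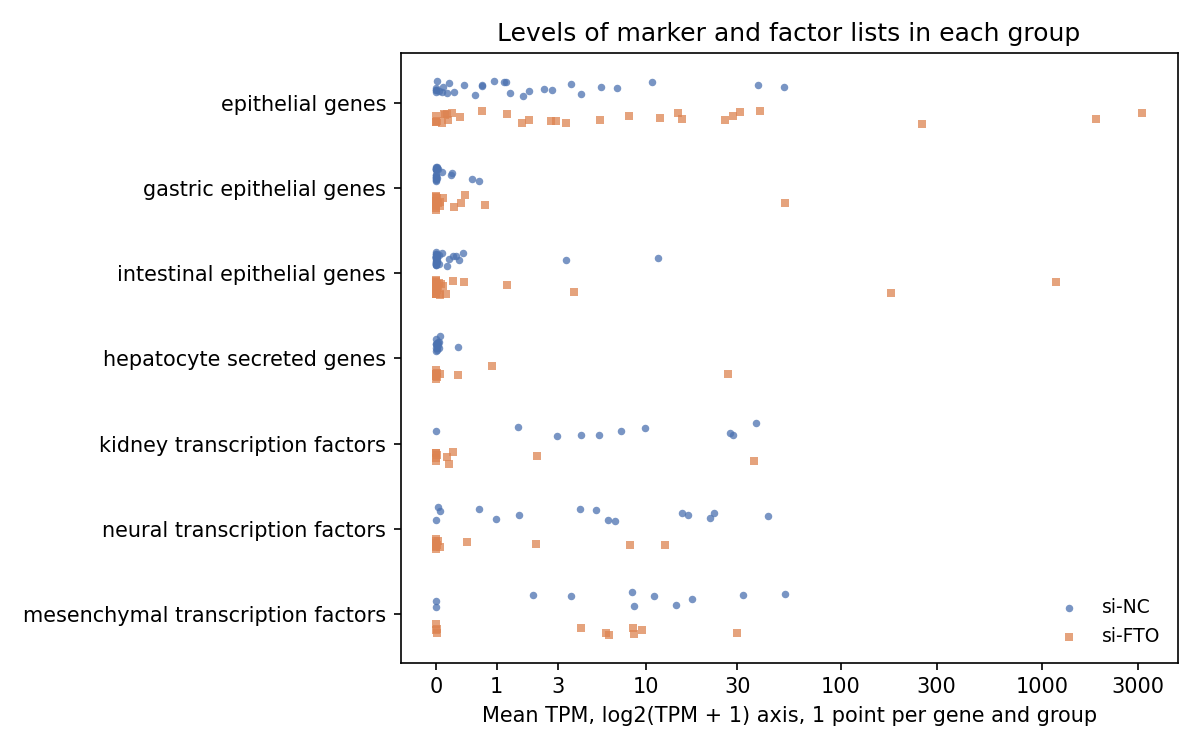
Mean TPM on a log2(TPM + 1) axis of every gene in 7 lists, with si-NC as circles and si-FTO as squares, 1 point per gene and group; the vertical scatter within a list only separates the points. Gastric genes stay under 1 TPM apart from PSCA in si-FTO (52.4 TPM), and KRT8 reaches 3139 TPM in si-FTO. Kidney and neural factors reach above 10 TPM in si-NC, as do SIX2 (36.4 TPM) and ZIC2 (12.6 TPM) in si-FTO.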

How the data were processed

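RNA was sequenced from 3 si-NC and 3 si-FTO libraries of cells labelled AGS, grouped by their titles. For 58174 genes the authors gave deposited values in TPM, averaged within each group. Their methods name Bowtie to hg19 and RSEM, whereas the submitters' processing notes name HISAT2 and hg19. The log2 ratio, p-value and q-value columns that the authors deposited hold their own comparison of si-NC with si-FTO and were not used. A TPM of 0.0001 was read as 0; 15 and 16 means lie between these values. Symbols were matched by identifier for 55726 genes. Coordinates and transcripts are those of GENCODE lifted to GRCh37, and promoters those of RefSeq. Log2 ratios with 1 TPM added were computed with numpy 2.4.6 and pandas 2.3.3 under Python 3.11.15, and drawn with matplotlib, and tested on simulated data. The alternatives were other pseudocounts, scalings, filters and thresholds. Depth is unknown and no test was possible. Members and lists were chosen with earlier results of these data known. Named genes are the members, FTO, genes overlapping a member, the 3 largest rises and falls and the most abundant gene of each list, and each member's 2 nearest factors. Other genes, and the windows of 10 neighbouring genes, were chosen after values were seen. Some genes covered by these rules are not reported here. Protein sequences were not analysed here.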

Additional observations from a re-analysis of the deposited data

How the results depend on the processing

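The 4 members lower in si-FTO numbered 4 under each of 7 alternatives. The number higher stayed at 4 under a pseudocount of 0.1 TPM, median-ratio scaling, quantile normalization, no filter, and 0.0001 kept with no pseudocount, was 3 at a mean of at least 5 TPM, which HNF4A does not reach, and was 1, ELF3, at a log2 ratio of at least 2. The members on in 1 group and off in the other numbered 1 and 3 in each setting. The log2 ratio of HNF4A ran from 1.03 to 3.24 and that of FOXA1 from 1.15 to 1.34. Of 27 member ratios under the other pseudocount and scalings, 27 kept their side of the threshold. This is little evidence of stability, since a smaller pseudocount can only enlarge a ratio and median-ratio scaling moved the median of all genes from -0.20 to -0.03.

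Over all genes, 976 were higher and 1241 lower at a log2 ratio of at least 2, and 2254 were lower at a mean of at least 5 TPM, where by construction fewer genes can be called, compared with 2340 and 3492. With 0.0001 kept and no pseudocount, 5348 were lower, since a low mean then gives a larger ratio. With off under 1 and on at 10 TPM, 387 genes were on in si-NC and off in si-FTO, compared with 643. Of 69 list medians, 18 moved by over 0.5 and 0 changed sign. With a pseudocount of 0.1 TPM, the median of other stomach factors went from -1.59 to -4.39. That of other intestinal factors went from -1.17 to -3.08, and that of enteroendocrine factors from -1.99 to -4.95. For kidney factors it went from -2.68 to -4.95 and for neural factors from -2.02 to -4.19. For epithelial genes it went from 0.89 to 1.43, and for mesenchymal factors from -1.61 to -1.75.

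No paired analysis was possible because the table gives 1 mean per group. For the same reason no fit without 1 library was run, and no error, test or interval is given. Depth is unknown, so an exact 0 has no upper limit here.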

Other observations

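Lists of other cell types and states were also read on the group means. LIN28B, an RNA-binding protein of early development listed with the pluripotency factors, had 41.2 TPM in si-NC against 0.00563 TPM in si-FTO, whereas SALL4 had 2.37 and 18.3 TPM; of the 7 genes of the list, 3 were compared, 1 was higher and 1 lower, or 2 lower with a pseudocount of 0.1 TPM. SOX2 is therefore not accompanied by one direction in that list. Of 9 fibroblast markers, 3 were higher and 2 lower (1 and 0 lower under median-ratio scaling and quantile normalization), and COL1A1 was the most abundant in both groups, with 10.3 and 36.4 TPM. Of 7 leukocyte markers, 2 were compared, and CD68 had 1.49 and 6.42 TPM. Of 5 endothelial markers, 4 were found, and CDH5 had 0.00827 and 40.9 TPM, whereas KDR had 0.401 TPM in si-NC and 0 listed in si-FTO, and VWF and TEK reached 0.0537 and 0.0147 TPM at most. Of 6 neuroendocrine markers, 1 was higher and 2 lower, and SYP had 14.3 and 0.743 TPM. The part of these genes in the members' values was not tested.

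Around the members, GATA6 and ELF3 each had an antisense neighbour with the direction of the member, GATA6-AS1 with 3.96 and 0.156 TPM and ELF3-AS1 with 1.83 and 12.2 TPM. The 10 compared genes nearest to GATA4 had a median log2 ratio of -0.44, with 3 lower and 1 higher, and those nearest to GATA6 had -0.49, with 3 lower and 0 higher. GATA6-AS1 and ENSG00000266283, which overlap GATA6, are 2 of those 3; without overlapping genes, a choice made after seeing the data, 2 were lower and 0 higher, with a median of -0.56. Those nearest to HNF4A had a median of -0.10, although 2 were higher and 0 lower, with a highest log2 ratio of 4.03. Those nearest to FOXA1 had a median of -0.57, with 1 higher and 2 lower, and those nearest to FOXA2 had -0.64, with 0 higher and 4 lower.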
